A study of Mus musculus with 6 samples.

Results

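The Ddx and Dhx RNA helicases are a large family of enzymes that remodel RNA with the energy of ATP. Members were all autosomal protein-coding genes with a symbol of Ddx or Dhx followed by digits, each taken by its longest protein-coding transcript in mm10. There were 47 of them, 32 Ddx and 15 Dhx, among 16899 genes with a value, 12974 of which were protein-coding. Ddx28, Ddx54, Ddx58 and Dhx57 were not analysed here, and Ddx3x and Ddx3y, on the sex chromosomes, are outside the rule.

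The values came from 6 mNET-seq libraries of C57BL/6 mouse embryonic stem cells. Of these, 2 were from a first Mettl3 knockout line (KO1), 2 from a second (KO2) and 2 from the Mettl3 control. Mettl3 is the catalytic subunit of the enzyme that writes m6A on RNA, and the study set out to examine transcription in its absence. All groups shared the same serum medium with LIF, the GSK3 inhibitor CHIR99021 and the MEK inhibitor PD0325901. The labels give neither how the lines were made nor whether each knockout is a single clone, and they do not say that the libraries of a group were separate cultures. The p-values below therefore measure the spread between these libraries, which may be technical.

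In mNET-seq, chromatin is digested with a nuclease, RNA polymerase II is precipitated, and the short nascent RNA it holds is sequenced. The deposited measure is a log2 escaping index, a ratio within a transcript. It is not the amount of an RNA or of polymerase on a gene, and the windows behind the ratio were not given in the sources used here. Read depth is unknown, so no interval from counts is given. In this table the index rose with the length of the gene, so levels of different genes are set against protein-coding genes of like span.

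Helicases of this superfamily use ATP to open short RNA duplexes or to strip proteins from RNA. Their motor is built from a pair of RecA-like domains, and motif II, the Walker B box that binds magnesium and ATP, gave the DEAD-box and DEAH-box families their names. DEAD-box proteins usually open short duplexes locally without travelling along the strand, and DEAH-box proteins move along it. Together they drive spliceosome remodelling, ribosome assembly, mRNA export, translation and decay.

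The coding sequence around motif II is shown for the 9 members called in KO2 and for Dhx9 and Ddx31, whose index hardly differed between groups. Each stretch is 60 bases of the chosen GENCODE M21 transcript, 5′ to 3′ in the sense direction, with the 4 codons of motif II in capitals. The last codon of the box is an aspartate codon (GAC or GAT) in 30 of 32 Ddx members. It is a histidine codon (CAC or CAT) in all 15 Dhx members and in the other two Ddx members, Ddx11 and Ddx60.
Ddx11: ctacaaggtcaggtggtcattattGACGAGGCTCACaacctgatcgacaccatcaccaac
Ddx43: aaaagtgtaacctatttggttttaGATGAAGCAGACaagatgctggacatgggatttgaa
Ddx41: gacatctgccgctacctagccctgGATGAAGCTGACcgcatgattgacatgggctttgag
Ddx52: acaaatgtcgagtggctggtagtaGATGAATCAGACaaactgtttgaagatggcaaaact
Ddx1: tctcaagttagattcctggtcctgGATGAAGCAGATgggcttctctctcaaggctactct
Ddx20: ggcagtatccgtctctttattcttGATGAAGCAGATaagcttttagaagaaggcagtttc
Ddx24: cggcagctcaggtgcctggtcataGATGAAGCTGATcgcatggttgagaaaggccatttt
Dhx8: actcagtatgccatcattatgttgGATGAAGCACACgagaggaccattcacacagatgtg
Dhx30: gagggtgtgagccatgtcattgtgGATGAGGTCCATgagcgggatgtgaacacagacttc
Dhx9: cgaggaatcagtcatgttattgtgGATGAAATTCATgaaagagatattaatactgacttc
Ddx31: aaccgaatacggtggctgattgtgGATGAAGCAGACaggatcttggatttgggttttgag

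Start regions were taken from RefSeq (GRCm38.p6), where 41 of the 47 members matched an entry and Ddx6, Ddx11, Ddx23, Ddx39, Dhx38 and Dhx58 did not. For 37 of them the RefSeq start lay within 100 bases of the start of the chosen transcript. The 100 bases shown run 5′ to 3′ on the gene's strand, from 80 bases before the start to 20 bases after it, with the transcribed bases in capitals. They are given for the members called in the average of both knockouts that had an entry, and for Dhx9 and Ddx31. Ddx43 is at chr9:78395697-78395796 (plus strand), Ddx41 at chr13:55536639-55536738 (minus), Ddx52 at chr11:83942010-83942109 (plus) and Ddx1 at chr12:13249155-13249254 (minus). Dhx9 is at chr1:153487641-153487740 (minus) and Ddx31 at chr2:28840326-28840425 (plus).
Ddx43: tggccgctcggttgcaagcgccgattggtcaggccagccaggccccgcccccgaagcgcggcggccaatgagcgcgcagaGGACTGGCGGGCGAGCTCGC
Ddx41: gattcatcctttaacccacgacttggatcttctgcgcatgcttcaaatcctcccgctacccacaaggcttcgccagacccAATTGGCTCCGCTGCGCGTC
Ddx52: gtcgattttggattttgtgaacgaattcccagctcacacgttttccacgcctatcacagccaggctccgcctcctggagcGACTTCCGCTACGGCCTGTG
Ddx1: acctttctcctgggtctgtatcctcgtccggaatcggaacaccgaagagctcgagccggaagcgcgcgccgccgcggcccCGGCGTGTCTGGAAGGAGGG
Dhx9: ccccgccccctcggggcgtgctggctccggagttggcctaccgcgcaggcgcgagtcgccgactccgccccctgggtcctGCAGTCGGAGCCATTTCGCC
Ddx31: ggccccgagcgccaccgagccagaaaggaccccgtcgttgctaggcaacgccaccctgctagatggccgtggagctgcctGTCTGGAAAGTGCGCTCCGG

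These starts were rich in CG. The 37 members held a median of 24 CG dinucleotides in the 300 bases from 250 before to 50 after the start, against 20 over 12928 promoters of protein-coding genes and 7 over all 32817 promoters. A GC box (GGGCGG, either strand) was present in 26 of the 37 (70.3%), against 63.1% of coding and 35.6% of all promoters. The ETS-type motif CCGGAAG, searched on both strands, was in 15 members (40.5%), against 16.8% of coding and 8.86% of all promoters. A TATA box (TATAAA) was in 2 members (5.41%), against 6.76% of coding and 13.6% of all promoters. CCAAT was in 18 members (48.6%), against 38.0% and 37.4%. The YY1-type motif AAGATGGCG was in 1 member (2.7%), against 2.86% and 1.4%. The end of the ETS-type motif is the start of the YY1-type one, so these can overlap. A match describes the letters and is not a binding site.

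Replicate libraries correlated across all genes at r = 0.976 in KO1, 0.977 in KO2 and 0.973 in control, and none held identical values. All 9 pluripotency markers had a value in the table, against 2 of 5 fibroblast, 1 of 4 primitive endoderm and 1 of 3 trophoblast markers. Presence in the table is all that can be checked, since the index is not a level of expression. Mettl3 had a log2 index of 2.44 and 2.42 in KO1, 2.1 and 2.31 in KO2 and 2.70 and 2.46 in control. Its change did not pass the test in KO1 (adjusted p = 0.681) or KO2 (adjusted p = 0.228), and the index cannot check whether the gene is disrupted. The index of all genes tested was lower in both lines, by a median log2 change of -0.32 in KO1 and -0.51 in KO2. Every change given here includes that shift unless it is said to be relative to the median of all genes. Relative changes were fitted after each library was centred on its own median over all genes.

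In control cells the helicases covered a wide range of the index. The mean log2 index ran between 2.99 for Dhx58 and 8.94 for Dhx29, with a median of 5.35 over the 47 members. In 28 members the index was above the median of protein-coding genes of like span, and in 19 it was below, with a median difference of 0.28. The index of 9 members was above the 90th percentile of such genes, and that of 1 member, Ddx60, was below the 10th percentile.

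Dhx29, a helicase that helps the small ribosomal subunit scan structured leaders, had a log2 index of 8.69 and 8.74 in KO1, 8.39 and 7.93 in KO2 and 8.55 and 9.33 in control. Its span is 42.0 kb, and its control index was 3.29 above the median of coding genes of like span. Ddx31, a nucleolar helicase, had 8.26 and 8.32 in KO1, 8.44 and 8.25 in KO2 and 8.18 and 8.38 in control. Ddx17, a co-regulator of transcription and splicing and the paralog of Ddx5, had 7.10 and 7.27 in KO1, 7.09 and 7.35 in KO2 and 8.14 and 7.66 in control. All 4 knockout values of Ddx17 lay below both controls, while those of Dhx29 and Ddx31 overlapped the controls. Dhx40, at a mean of 7.89 in control, stood next to Ddx17 and its control libraries differed by more than the gap between them (7.18 and 8.59).

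The 3 lowest members in control, Dhx58, Ddx41 and Ddx18, span 9.4, 6.2 and 14.2 kb. Dhx58, which encodes LGP2, a cytoplasmic sensor of viral RNA, had a log2 index of 2.73 and 3.24 in KO1, 2.49 and 2.48 in KO2 and 3.17 and 2.81 in control. Ddx41, at 6.2 kb the shortest member, averaged 3.33 in control, 0.21 below the median of coding genes of like span. Ddx18, whose yeast relative Has1 works in ribosome assembly, had 3.33 and 3.09 in KO1, 3.17 and 2.81 in KO2 and 3.35 and 3.74 in control. KO2 lay below both controls in all 3 of these genes. The member furthest below its length class was Ddx60, an interferon-induced gene of 110.2 kb, with a mean of 3.84 in control, 2.92 under the median.

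**Figure D1:**
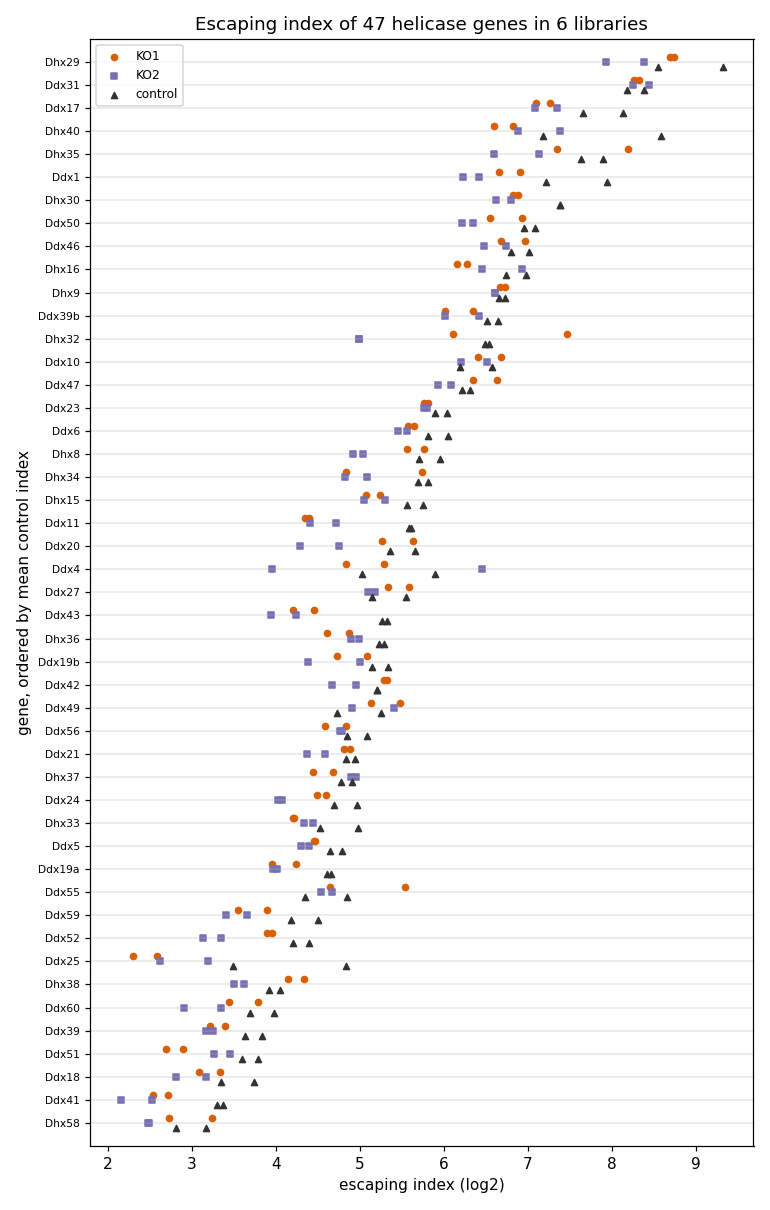
Log2 escaping index (x axis) of the 47 Ddx and Dhx members (y axis, sorted by the control mean), with 1 point per library and 2 libraries each in KO1, KO2 and control. The control means run between 2.99 for Dhx58 and 8.94 for Dhx29, and the largest gap between libraries of a group is that of Ddx4 in KO2 (3.96 and 6.45).

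The median change of the helicases was below 0 in both knockouts, as it was for other genes, and no member passed the test in KO1. The median log2 index over the 47 members was 5.07 and 5.27 in the KO1 libraries, 4.90 and 4.99 in the KO2 libraries and 5.55 and 5.25 in the control libraries. The KO1 medians overlapped those of control, and the KO2 medians lay below both. The median log2 change was -0.29 in KO1, against -0.32 over all genes tested. It was -0.51 in KO2 for members and for all genes alike, and -0.45 in the average of both knockouts, against -0.41 over all genes. Over protein-coding genes, the class of all members, the medians were -0.37, -0.58 and -0.47. The change was below 0 in 36 members in KO1 (76.6%, against 72.1% of all genes and 77.0% of protein-coding genes) and in 43 members in KO2 (91.5%, against 80.4% and 85.8%). In the average it was below 0 in 43 members (91.5%, against 78.8% and 84.6%). Relative to the median of all genes, the median change of the members was 0.05 in KO1, 0.01 in KO2 and -0.02 averaged over both lines. In that centred fit the median change over all genes was 0.02, 0.01 and 0.02.

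**Figure D2:**
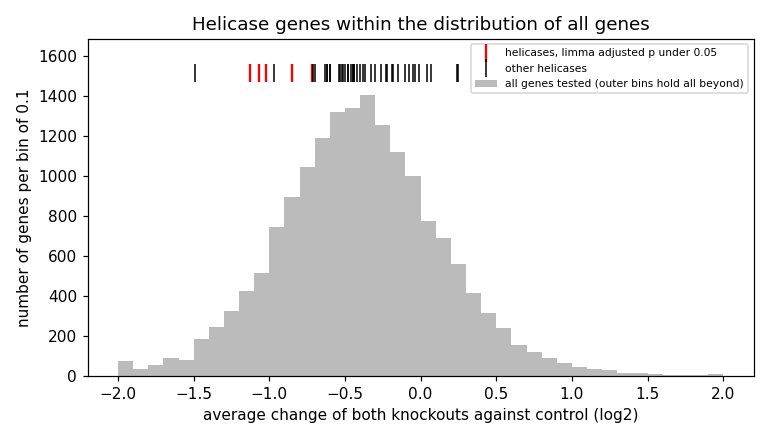
Number of genes (y axis) per bin of 0.1 of the log2 change in the average of both knockouts minus control (x axis), for all 16899 genes tested in grey, with the genes beyond the axis in the outermost bins. The 47 members are ticks above the bars, the 5 called ones in red; the median is -0.45 for members and -0.41 for all genes, and no member exceeds 0.25.

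At an adjusted p under 0.05 (limma over all 16899 genes, Benjamini-Hochberg), 9 members were called in KO2, all lower, which is 19.1% of members against 18.4% of all genes and 2849 of 12974 protein-coding genes (22%) called lower. In the average of both knockouts 5 members were called, all lower, which is 10.6% against 15.9% of all genes and 19.2% of protein-coding genes. In KO1 no member and no gene of the table was called (0%). The smallest adjusted p there was 0.0577, that of Ddx11 among others, and 14 members were lower and 0 higher at an unadjusted p under 0.05, against 24.4% and 3.24% of all genes. By the same measure 19 members were lower and 0 higher in KO2, against 37.2% and 1.92%, and 17 lower and 0 higher in the average, against 35.0% and 2.15%. No member was called higher in any contrast, against 0.438% of all genes in KO2 and 0.491% in the average. Leaving out any 1 of the 6 libraries ended all of these calls and every other call in the table, and so did centring each library on its median. Among protein-coding genes alone, 1 member was called lower in KO1 (Ddx11), which is 2.13% against 6.00% of those genes. In KO2 it was 13 members (27.7% against 29.0%), and in the average 10 (21.3% against 26.0%).

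All 4 knockout libraries lay below both controls in 24 members (51.1%), against 39.0% of all genes and 45.3% of protein-coding genes, and above both controls in 0 members, against 3.18% of all genes. Among the Ddx members this held for 20 of 32 (62.5%), and among the Dhx members for 4 of 15 (26.7%); the difference between the families was not tested. The median change in the average was -0.44 for Ddx and -0.45 for Dhx members. KO1 libraries were both below both controls in 27 members (57.4%), against 47.3% of all genes and 53.3% of protein-coding genes. KO2 libraries were both below them in 38 members (80.9%), against 59.6% and 67.0%. No test of these shares was made.

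Ddx11 encodes a DNA helicase that acts in sister chromatid cohesion and the repair of replication forks, and its motif II ends in a histidine codon. It spans 28.6 kb on chromosome 17 (66123520 to 66152167, plus strand). Its log2 index was 4.39 and 4.35 in KO1, 4.72 and 4.41 in KO2 and 5.61 and 5.59 in control. The 4 knockout libraries lay apart from both controls by more than any gap within a group. The log2 change in the average was -1.13 ± 0.16 (SE, adjusted p = 0.028), a ratio at 45.6% of control, and it was -1.03 in KO2 (adjusted p = 0.0288). In KO1 the value was -1.23 (adjusted p = 0.0577). Relative to the median of all genes, the change in the average was -0.70.

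Ddx43, a germline helicase also known as a tumour antigen in human, lies on chromosome 9 (78395777 to 78423587, plus strand). Its log2 index was 4.21 and 4.46 in KO1, 4.24 and 3.94 in KO2 and 5.26 and 5.32 in control, again with all 4 knockout libraries below both controls. The log2 change in the average was -1.07 ± 0.17 (SE, adjusted p = 0.028), a ratio at 47.6% of control, and -0.64 relative to the median of all genes. In KO2 it was -1.19 (adjusted p = 0.0286). The noncoding gene 4930542C12Rik starts on the other strand within 1 kb and overlaps Ddx43. The use of strand in counting was not given in the sources used here, so it is not known whether reads of such a pair were kept apart.

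Among the 9 splicing helicases, 2 were called lower in KO2 (Ddx41 and Dhx8) and 1 in the average (Ddx41), and 7 and 8 did not pass. Over all genes 18.4% were called lower in KO2 and 15.9% in the average. The median change of the splicing group in the average was -0.40. All 9 of its values were below 0, against 4 of 9 relative to the median of all genes. Ddx41 acts in splicing and has been described as a sensor of foreign DNA. It lies on chromosome 13 (55530410 to 55536658, minus strand), where Gm46416 overlaps it on the other strand. Its log2 index was 2.54 and 2.72 in KO1, 2.15 and 2.53 in KO2 and 3.30 and 3.37 in control, so the groups did not overlap. In the average the log2 change was -0.85 ± 0.19 (SE, adjusted p = 0.0402) and -0.99 in KO2 (adjusted p = 0.0368).

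Dhx8, the counterpart of yeast Prp22 that releases spliced mRNA from the spliceosome, lies on chromosome 11 (101732950 to 101767358, plus strand). It had a log2 index of 5.56 and 5.77 in KO1, 4.92 and 5.04 in KO2 and 5.96 and 5.71 in control. KO2 lay apart from the other libraries, and 1 KO1 library lay between the controls. The log2 change was -0.85 ± 0.19 in KO2 (SE, adjusted p = 0.0364), with values of -0.17 in KO1 and -0.51 in the average (adjusted p = 0.08).

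None of the other splicing members passed the test. Dhx15, the counterpart of yeast Prp43 that takes spliceosomes apart, had 5.07 and 5.24 in KO1, 5.05 and 5.30 in KO2 and 5.75 and 5.56 in control (log2 index). Its log2 change in the average was -0.48 (adjusted p = 0.0933), with no overlap between knockouts and controls. Dhx16, the counterpart of yeast Prp2, had a log2 change of -0.40 and Ddx23, the counterpart of yeast Prp28, one of -0.18. Dhx38, Ddx42 and Ddx46, which correspond to yeast Prp16, to SF3b125 in human and to yeast Prp5, had -0.08, -0.15 and -0.19. In Dhx35 the log2 change was 0.01 in KO1 and -0.90 in KO2 (adjusted p = 0.124), with KO1 libraries at 7.35 and 8.20, KO2 libraries at 6.60 and 7.14 and controls at 7.63 and 7.90.

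Of the 5 export helicases, none was called in either contrast with calls. Over all genes 18.4% were called lower in KO2 and 15.9% in the average. In all 5 the 4 knockout libraries lay below both controls, against 39.0% of all genes and 45.3% of protein-coding genes. The median change of these 5 in the average was -0.48. It was -0.05 relative to the median of all genes, with 4 of the 5 below 0 on that scale. Ddx25, a testis helicase active in export and translation in sperm precursors, had a log2 index of 2.30 and 2.59 in KO1, 3.19 and 2.62 in KO2 and 4.83 and 3.49 in control. Its log2 change of -1.49 ± 0.41 in the average was the furthest from 0 of all members, but its control libraries were wide apart and the adjusted p was 0.0617. Pus3 starts on the other strand within 1 kb of Ddx25.

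Ddx19a, a close relative of the nuclear pore helicase Ddx19b, had 3.95 and 4.24 in KO1, 3.97 and 4.01 in KO2 and 4.61 and 4.66 in control (log2 index). The log2 change was -0.60 ± 0.16 in the average (SE, adjusted p = 0.0563) and -0.44 for Ddx19b (adjusted p = 0.231). The transcripts of the pair share 921 stretches of 35 bases, 36.65% of those in Ddx19a and 30.0% of those in Ddx19b, so reads could be split between them. No other member shared such a stretch with another member. Ddx39b, the TREX export subunit also called UAP56, had a log2 change of -0.38, and its paralog Ddx39 one of -0.48.

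The 15 ribosome biogenesis helicases had the median change nearest 0 of the role groups, -0.22 in the average, and 11 of the 15 values were below 0. Relative to the median of all genes the group's median was 0.21, with 6 of 15 below 0. Of the 15, 2 were called lower in KO2 (Ddx24 and Ddx52), against 18.4% of all genes. In the average 1 was called lower (Ddx52), against 15.9% of all genes. Ddx52, the counterpart of yeast Rok1 in small-subunit assembly, lies on chromosome 11 (83942062 to 83963088, plus strand). It had a log2 index of 3.90 and 3.95 in KO1, 3.35 and 3.13 in KO2 and 4.39 and 4.21 in control. The 3 groups did not overlap, and KO2 was the lowest. The log2 change was -1.06 ± 0.19 in KO2 (SE, adjusted p = 0.0288), -0.38 in KO1 and -0.72 in the average (adjusted p = 0.0403).

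Ddx24, the counterpart of yeast Mak5 in large-subunit assembly, lies on chromosome 12 (103407982 to 103425819, minus strand). Its log2 index was 4.49 and 4.60 in KO1, 4.07 and 4.02 in KO2 and 4.69 and 4.97 in control. The groups did not overlap, with KO2 lowest and KO1 between KO2 and control. In KO2 the log2 change was -0.78 ± 0.18 (SE, adjusted p = 0.0405), and it was -0.54 in the average (adjusted p = 0.0692). Ddx51, which acts on the large subunit, was lower in KO1 than in KO2, with a log2 index of 2.69 and 2.89 in KO1, 3.45 and 3.26 in KO2 and 3.60 and 3.79 in control. Its log2 change was -0.90 in KO1 (adjusted p = 0.0709) and -0.34 in KO2 (adjusted p = 0.25). The difference of Ddx51, KO1 minus KO2, was -0.56 and did not pass the test (adjusted p = 0.238).

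Of the nucleolar pair Ddx21 and Ddx50, which arose by duplication, Ddx50 had a log2 change of -0.74 in KO2 (adjusted p = 0.0569) and Ddx21 one of -0.42 (adjusted p = 0.135). The 4 members with a mean above control in the average all belonged to this group. They were Ddx55 (0.25), Ddx49 (0.24), Ddx10 (0.07) and Ddx31 (0.04), and none passed the test. Over all genes, 3584 of 16899 were above 0 in the average. Relative to the median of all genes, 26 of the 47 members were below 0. On that scale members of other role groups also lay above 0, among them Dhx9 (0.39). Dhx37 had 4.68 and 4.44 in KO1, 4.90 and 4.95 in KO2 and 4.78 and 4.91 in control, a log2 change of -0.10 in the average. The remaining members of the group, Ddx18, Ddx27, Ddx47, Ddx56 and Dhx33, had log2 changes between -0.45 and -0.01.

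All 5 members that act in translation, mRNA decay or tRNA processing had a mean below control. Their median change in the average was -0.50. Relative to the median of all genes it was -0.07, with 3 of 5 below 0. Of the 5, 1 (Ddx1) was called lower in KO2 and in the average, against 18.4% and 15.9% of all genes. Ddx1 is part of the tRNA ligase complex and lies on chromosome 12 (13216973 to 13249213, minus strand). It had a log2 index of 6.91 and 6.66 in KO1, 6.42 and 6.23 in KO2 and 7.94 and 7.22 in control. All knockout libraries were below both controls, and the controls themselves differed more than the libraries of either knockout. Its log2 change was -1.02 ± 0.25 in the average (SE, adjusted p = 0.0471), a ratio at 49.2% of control, and -1.25 in KO2 (adjusted p = 0.0395).

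Ddx6, the decapping and translational repression helicase, had 5.64 and 5.57 in KO1, 5.45 and 5.56 in KO2 and 5.81 and 6.05 in control (log2 index). Its groups did not overlap, and its log2 change of -0.37 in the average did not pass the test (adjusted p = 0.139). Dhx36, which unwinds G-quadruplexes, had 4.61 and 4.87 in KO1, 4.90 and 4.99 in KO2 and 5.29 and 5.23 in control, a log2 change of -0.42 (adjusted p = 0.11). Dhx34, which acts in nonsense-mediated decay, had -0.63 (adjusted p = 0.164) and Dhx29 had -0.50 (adjusted p = 0.254).

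Among the 5 members known for transcription, snRNP assembly or genome maintenance, Ddx11 was called in both contrasts and Ddx20 in KO2. Over all genes 18.4% were called lower in KO2 and 15.9% in the average. The means of these 5 members were all below control in the average, and 3 of 5 were below it relative to the median of all genes. Ddx20, or Gemin3, is a subunit of the SMN complex that assembles snRNPs, and it lies on chromosome 3 (105678270 to 105687574, minus strand). Its log2 index was 5.63 and 5.27 in KO1, 4.29 and 4.75 in KO2 and 5.66 and 5.36 in control. KO1 overlapped the controls and KO2 lay below all other libraries. Its log2 change was -0.99 ± 0.25 in KO2 (SE, adjusted p = 0.048) and -0.06 in KO1. The difference between the lines did not pass the test of KO1 against KO2.

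Ddx17 had a log2 change of -0.70 in the average (adjusted p = 0.0721) and its paralog Ddx5 one of -0.30 ± 0.14 (adjusted p = 0.184), with Ddx5 at 4.47 and 4.45 in KO1, 4.30 and 4.40 in KO2 and 4.64 and 4.79 in control. Dhx9, also called RNA helicase A, was nearly level, with 6.67 and 6.73 in KO1, 6.61 and 6.61 in KO2 and 6.66 and 6.73 in control. Its log2 change was -0.04 ± 0.14 in the average. Relative to the median of all genes it was 0.39.

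Dhx30, the 1 mitochondrial member, acts in mitochondrial ribosome assembly and lies on chromosome 9 (110084320 to 110117830, minus strand). It had a log2 index of 6.83 and 6.89 in KO1, 6.62 and 6.80 in KO2 and 7.38 and 7.38 in control, with no overlap. The log2 change was -0.67 ± 0.17 in KO2 (SE, adjusted p = 0.0496) and -0.60 in the average (adjusted p = 0.0505). Smarcc1 starts on the other strand within 1 kb and overlaps it.

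The 2 innate sensing members, Dhx58 and Ddx60, had log2 changes of -0.26 and -0.46 in the average, and neither passed the test. Ddx60 had 3.44 and 3.79 in KO1, 2.91 and 3.35 in KO2 and 3.69 and 3.98 in control (log2 index). Of the germline pair, Ddx43 was called and Ddx4, the mouse vasa homolog, was not. Ddx4 had 4.84 and 5.29 in KO1, 3.96 and 6.45 in KO2 and 5.90 and 5.03 in control, and the 2 KO2 libraries lay on either side of all others.

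Of the 3 members of less settled role, none was called, against 18.4% of all genes called lower in KO2 and 15.9% in the average. Ddx59 had 3.90 and 3.55 in KO1, 3.66 and 3.41 in KO2 and 4.18 and 4.5 in control (log2 index), a log2 change of -0.71 in the average (adjusted p = 0.0621). Dhx40 had 6.60 and 6.82 in KO1, 7.38 and 6.89 in KO2 and 7.18 and 8.59 in control, a log2 change of -0.97 (adjusted p = 0.152). Dhx32 had 7.47 and 6.11 in KO1, 4.99 and 4.99 in KO2 and 6.54 and 6.49 in control. Its log2 change was -1.52 in KO2 (adjusted p = 0.0615) and 0.28 in KO1. The genes Bccip and Fank1 overlap Dhx32 on the other strand.

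**Figure D3:**
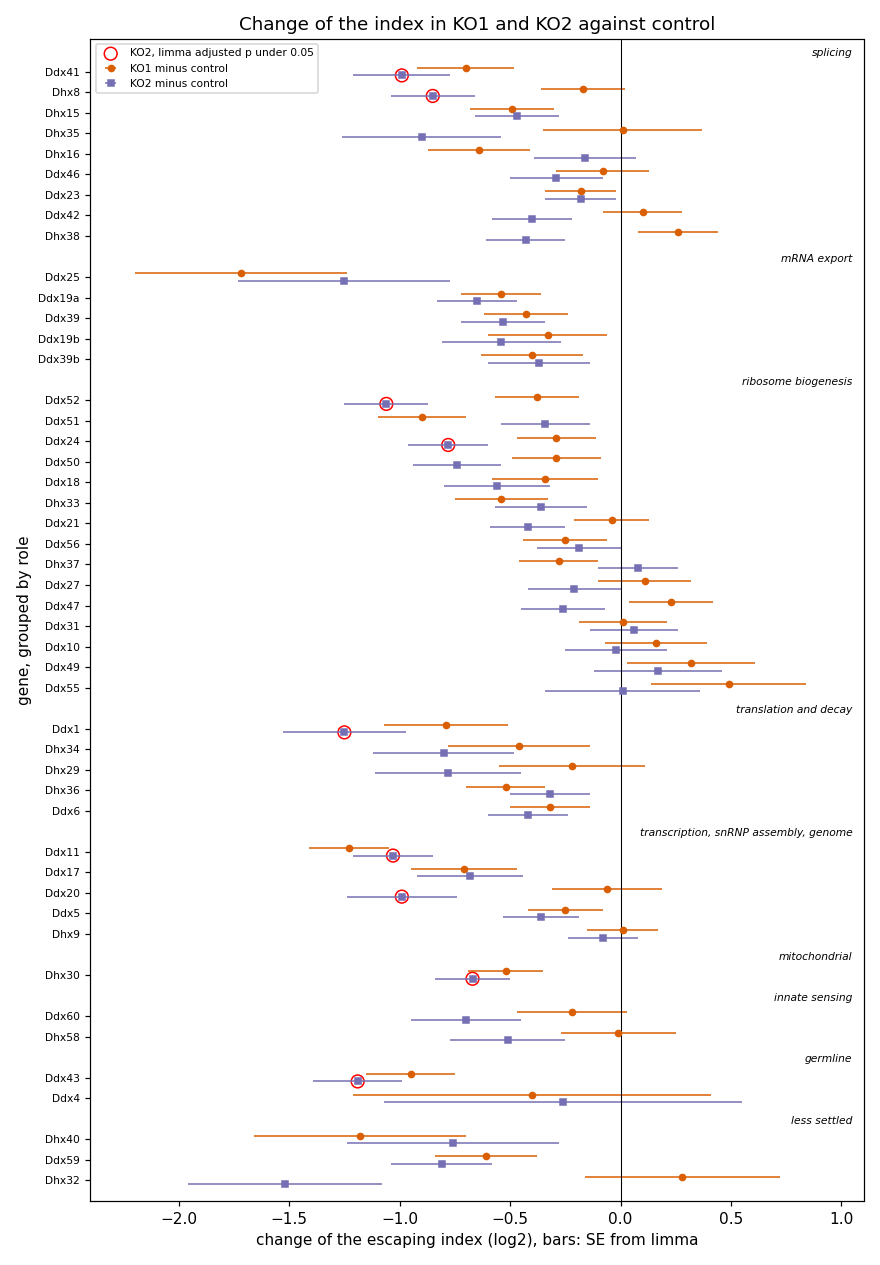
Log2 change of the escaping index against control (x axis) for each of the 47 members (y axis, grouped by role), with points for KO1 and KO2, bars of 1 standard error from limma, and red circles for the 9 members called in KO2. KO2 lies below 0 in 43 of 47 members (23 of 47 relative to the median of all genes). The members above 0 in the average (Ddx10, Ddx31, Ddx49 and Ddx55) are ribosome biogenesis helicases, and none of the 4 passed the test. Relative to the median of all genes, members of other roles also lie above 0.

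No member and no gene of the table was called between KO1 and KO2 (0%), and the smallest adjusted p among members was 0.167, for Dhx32 with a log2 difference of 1.80 ± 0.44 (SE). At an unadjusted p under 0.05, KO1 was above KO2 in 9 of 47 members and below it in 1, against 14.8% and 3.41% of all genes. By that measure KO1 was above KO2 in 2058 of 12974 protein-coding genes and below it in 417. In 3 members (6.38%) both KO1 libraries lay above both controls and both KO2 libraries below them, against 2.76% of all genes. The median log2 difference, KO1 minus KO2, was 0.20 over members and 0.19 over all genes. The knockouts share their control libraries, so the changes of the 2 lines are not independent of each other.

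The table also lists transcript models that start elsewhere in these genes, called internal here. The 47 members had 261 models, 84 of them retained-intron and 18 nonsense-mediated decay models. In 36 members at least 1 model started more than 1000 bases from the start of the chosen transcript, and in all 36 its control index was lower than that of models starting within 100 bases, as in 91.2% of 7059 protein-coding genes with both kinds of model. The median log2 index in control was 0.90 for internal starts and 4.87 for shared starts, and over those protein-coding genes it was 1.71 and 4.99. Internal models were also shorter, with a median span of 3.1 kb against 20.2 kb.

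The change of the index differed between the 2 kinds of model too. In the average of both knockouts the median log2 change was 0.08 for internal starts and -0.45 for shared starts, against 0.03 and -0.46 over the protein-coding genes. It was higher for internal starts in 34 of 36 members (94.4%), against 80.3% of the coding genes, and above 0 in 24 of 36 (66.7%), against 53.7%. In Ddx11 the internal models had a median log2 change of 0.19 and the models of the shared start -1.13, and in Ddx1 the values were 0.61 and -1.03. Ddx52 had 0.56 and -0.72. Dhx8 went the other way, with -0.67 and -0.48. Models of 1 gene share reads, so they are not independent of each other, and when all models of a gene were averaged 1 member was called in KO2 (Ddx43) and 2 in the average (Ddx11 and Ddx43).

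**Figure D4:**
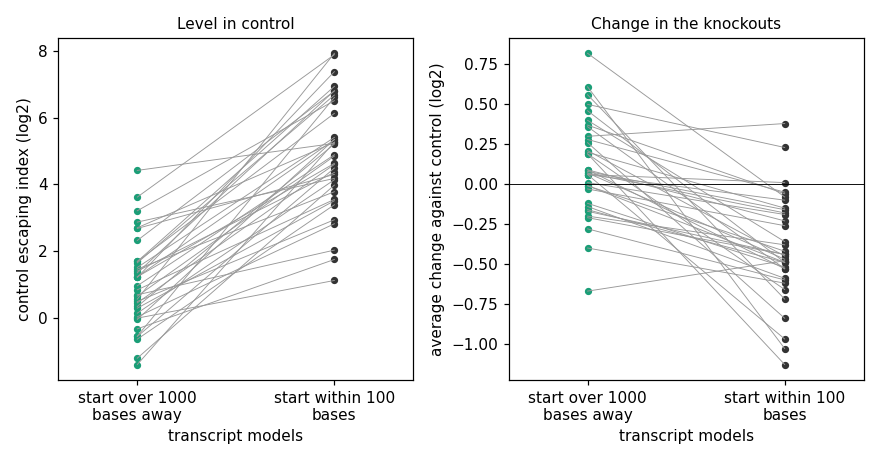
Control log2 index (left) and log2 change in the average of both knockouts (right) for the 36 members with both kinds of transcript model, each line joining the median of models that start over 1000 bases away with that of models within 100 bases of the chosen start. The control index is lower for internal starts in all 36, and the change is higher for them in 34.

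Longer genes had a higher index, and the change showed no relation of that size. Over the 47 members the control log2 index correlated with the log10 span at r = 0.48 (Spearman's rho = 0.53), and over 12974 protein-coding genes at r = 0.69 (rho = 0.68). These correlations are across genes, which are not replicates and share libraries. The log2 change in the average correlated with the span at r = -0.01 (rho = -0.06) over members and -0.06 (rho = -0.05) over coding genes. With the number of exons, 8 to 38 among members, it gave r = 0.06 (rho = 0.14). With the density of GGACT, the commonest m6A motif, in the transcript, which ran between 0.31 and 2.9 per kb, it gave r = 0.12 (rho = 0.06). Among genes of 15.5 to 35.5 kb, the 23 members had a median control index of 5.23 and a median log2 change of -0.52, against 4.98 and -0.47 for 3398 protein-coding genes.

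**Figure D5:**
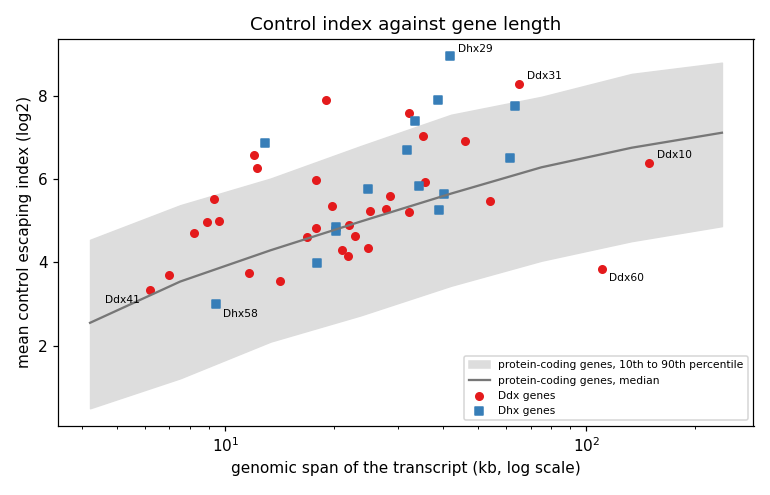
Control log2 index (y axis) against genomic span in kb (x axis, log scale), with the 47 members as points over the 10th, 50th and 90th percentiles of protein-coding genes in bins of span. Dhx29 and Ddx17 lie 3.29 and 2.92 above the median of their bin, and Ddx60 lies 2.92 below it.

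Some members had close neighbouring genes, and how often other genes have them was not counted. In 16 members another gene started on the other strand within 1 kb, with a median log2 change of -0.47 in the average, against -0.44 in the 31 without. The 18 members that overlap another annotated gene had -0.48, and the 29 without overlap -0.42.

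RNA helicases outside this naming were counted beside the members. Of 24 listed that are not named Ddx or Dhx, 19 had a value. Of these 19, 0 were called in KO1, 3 were lower in KO2 and 2 were lower in the average. Their median log2 changes were -0.28, -0.39 and -0.28. Over all genes, 0% were called in KO1, 18.4% were called lower in KO2 and 15.9% in the average. The medians over all genes were -0.32, -0.51 and -0.41. Aqr, the intron-binding spliceosome helicase, had a log2 change of -0.98 in the average (adjusted p = 0.0348) and Ascc3, which resolves collided ribosomes and acts in DNA repair, one of -1.47 (adjusted p = 0.028). Fancm, a DNA translocase of the Fanconi anaemia pathway, had -1.10 in KO2 (adjusted p = 0.0321). The initiation helicase Eif4a1 had -0.16 in the average and the spliceosome helicase Snrnp200 had 0.00, and neither passed the test.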

How the data were processed

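The authors deposited 1 table of log2 values of an escaping index for 68473 Ensembl transcripts in 6 libraries. Per the submitters' processing notes, the build was mm10 and featureCounts, HISAT2 2.1.0, Trimmomatic 0.38 and CASAVA were used, with settings, index windows, strand use and read depth not given in the sources used here. Transcripts were matched without version to GENCODE M21 (68397 matched, 76 did not). Each gene was taken by its longest protein-coding transcript (any transcript for other genes), by genomic span, which gave 16899 genes. Values were used as deposited, without rescaling, filter or pseudocount.

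A single model over all 6 libraries was fitted in R 4.3.3 with limma 3.58.1 (a mean per group, variance trend, two-sided tests, Benjamini-Hochberg over all genes, called at 0.05). The fit had 3 residual degrees of freedom, to which the prior added 2.61. The procedure was checked on simulated data for the average contrast, in 5 runs where a small part of the genes was lowered. It called 4.2% of the genes given a log2 change of size 1 and 49.8% of those given size 2. Of 284 calls, 14 were false. In the data the change was below 0 in 78.8% of all genes in the average. The simulated setting differs from that, so these shares are not the recovery in the data. A gene that did not pass the test may still have changed. Motifs, spans and overlaps were computed in Python 3.11.15 with pandas 2.3.3 and numpy 2.4.6.

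The members, role groups and lists were chosen with earlier results of these data known. Values in every library are given for called members, for the 3 highest and the 3 lowest in control, and for the members of smallest p in each role group. Values of Dhx9, Ddx5, Ddx4, Ddx51, Dhx37, Dhx35, Dhx32, Dhx40 and other members were added after they were seen. Alternatives were 2 rescalings, other genes or transcripts tested, a pseudocount of 1, filters on low values, other variance models, a replicate block and leaving out each library.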

Additional observations from a re-analysis of the deposited data

Results flagged for a closer look

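In 3 members both KO1 libraries lay above both controls and both KO2 libraries below them. That is 6.38% of members, against 467 of all 16899 genes (2.76%) and 2.74% of protein-coding genes. Dhx38, a splicing helicase, had a log2 index of 4.14 and 4.34 in KO1, 3.5 and 3.62 in KO2 and 4.05 and 3.92 in control. Its log2 difference, KO1 minus KO2, was 0.68 (adjusted p = 0.181). Ddx42 had 5.29 and 5.32 in KO1, 4.95 and 4.67 in KO2 and 5.21 and 5.21 in control, a difference of 0.49 (adjusted p = 0.239). Ddx47, a ribosome biogenesis helicase, had 6.64 and 6.35 in KO1, 6.09 and 5.93 in KO2 and 6.22 and 6.31 in control, a difference of 0.49 (adjusted p = 0.256). None of the 3 passed the test of KO1 against KO2 over all genes.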

How the results depend on the processing

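The median log2 change of the members kept its sign under every alternative except rescaling. Median centring gave 0.051 in KO1, 0.012 in KO2, -0.018 in the average and 0.015 for KO1 against KO2. Quantile normalization gave 0.066, -0.015, -0.017 and 0.007. Both set the calls in KO2 and in the average to 0, over all genes and over members. The mean over transcripts gave medians of -0.279 in KO2 and -0.242 in the average, with 1225 and 1038 genes and 1 and 2 members called. Testing protein-coding genes alone called 813 genes and 1 member in KO1 and 10 members in the average (in either direction). There the model was refitted, so both the variance estimate and the adjustment rest on fewer genes. With both knockouts as 1 group, 1266 genes and 2 members were called. The KO2 groups fitted alone with control gave 0 genes and 0 members. Same-numbered libraries did not deviate together across genes (r between -0.009 and 0.022). With 2 libraries a group this cannot tell whether they were handled as pairs. The fit with a replicate block called 0 genes and 0 members in KO2 and in the average. Its smallest adjusted p over all genes was 0.0538 in the average. Leaving out 1 library at a time gave 0 calls over genes and members in every contrast. The medians of members then ran between -0.339 and -0.255 in KO1, -0.521 and -0.449 in KO2, -0.474 and -0.387 in the average, and 0.12 and 0.196 for KO1 against KO2. The cause of these differences was not tested. The 2 libraries a group and the unknown depth limit the precision of every change.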
